A study of Mus musculus with 8 samples.

Results

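Mouse mammary basal cells sorted as Tspan8-negative (T8-) were compared according to Lgr5, in 4 of the 8 RNA-seq libraries of a study that sorted basal cells by both markers. The comparison takes the Lgr5+T8- libraries (2) against the Lgr5-T8- libraries (2), chosen by their titles, with the batch number as a block. The other 4 libraries, Lgr5+T8hi (2) and Lgr5-T8hi (2), served to estimate the spread between libraries and, at the end, for a test of whether the Lgr5-associated difference depends on Tspan8. All 4 populations were basal cells isolated without treatment by flow cytometry from mammary glands of C57BL/6 females aged 10 weeks. The mice bore Lgr5-GFP-IRES-CreERT2, an allele in which GFP and a tamoxifen-dependent Cre recombinase are placed under the control of the Lgr5 locus. Lgr5+ and Lgr5- cells alike come from animals that carry it, and its zygosity is not stated. The allele is known for mosaic activity in the mouse intestine, and the labels do not say which reagent read each marker or whether cells of several animals were pooled.

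Lgr5 is a receptor for R-spondins, secreted proteins that keep Wnt receptors on the cell surface by removing the ubiquitin ligases Rnf43 and Znrf3, and it marks stem cells in the intestine and the hair follicle. The basal layer of the mammary duct consists of cells that express Krt5, Krt14 and Trp63, contract in response to oxytocin and lay down the basement membrane, and it contains the cells that regenerate a gland on transplantation. Tspan8 is a tetraspanin, a membrane protein that organises adhesion receptors and signalling proteins.

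Total counts were 33976135 and 24571300 in the Lgr5+T8- libraries and 34490324 and 25904146 in the Lgr5-T8- libraries, and 16526 of 27164 genes passed the count filter. Levels are given as CPM (counts in each library scaled to a common size by the TMM method) in the order batch 1, batch 2. The basal label fits the basal markers: Krt5 stood at 2617 and 2753 CPM in Lgr5+T8- cells, against 2106 and 2203 CPM in Lgr5-T8- cells, and Trp63 was between 228 and 350 CPM in all 4 libraries. Elf5, which marks luminal progenitors, stayed at or below 1.65 CPM, but other luminal genes were abundant. Lcn2, listed with luminal progenitor and milk genes, was 1189 and 893 CPM in Lgr5+T8- cells, against 1370.5 and 1154 CPM in Lgr5-T8- cells. Epcam, shared by the luminal cell types, was 674 and 517 CPM in Lgr5+T8- cells, against 535 and 369 CPM in Lgr5-T8- cells. Libraries of the same batch deviated together in every pair of populations (correlations of 0.415 to 0.55). Nothing in the labels ties the 2 libraries of a population to separate animals, so the p-values reflect the spread between these libraries alone, which may be technical. In sorted bulk samples, fewer cells of a type and less RNA per cell cannot be told apart.

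Lgr5 itself, which the sort used, was 185 and 212 CPM in Lgr5+T8- cells, against 58.4 and 50.5 CPM in Lgr5-T8- cells. The negative gate still held Lgr5 transcripts, and the 2 groups did not overlap (log2 fold change 1.86 ± 0.11, SE). The gene A930009A15Rik overlaps the Lgr5 locus on chromosome 10, and the strand setting of the counting is not stated, so reads they share cannot be told apart. The same holds for Wnt3 and Wnt9b, Kcnmb1 and Kcnip1, Gli1 and Arhgap9, Itga1 and Pelo, Plin4 and Hdgfl2, Kif20a and Brd8, and Nusap1 and Oip5. Tspan8, the other sort marker, was low in both groups, at 10.6 and 6.82 CPM in Lgr5+T8- cells, against 4.37 and 3.16 CPM in Lgr5-T8- cells and 150 to 289 CPM in the T8hi libraries. It was nevertheless higher in the Lgr5+ libraries of both batches (log2 fold change 1.20 ± 0.15, adjusted p = 0.00047 by edgeR's quasi-likelihood test with Benjamini-Hochberg adjustment, and 0.0679 with no term for the batch). Lgr5 and Tspan8 lie on the same chromosome with 229052 bases between their annotated starts.

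Across the transcriptome, 630 genes were higher (3.81% of those tested) and 834 were lower (5.05%) in Lgr5+T8- than in Lgr5-T8- cells at an adjusted p under 0.05 in edgeR's quasi-likelihood test, which together is 8.86%. The lower genes moved further: 392 of 834 differed at least 2-fold, against 133 of 630 higher genes, and the median log2 fold change was -0.94 for the lower and 0.64 for the higher genes, with a median of 0.02 over all genes tested. Many lower genes were weakly expressed, and 35.7% of them averaged under 5 CPM, against 14.1% of the higher genes and 32.9% of all genes tested. Among genes of at least 5 CPM the numbers were 541 higher and 536 lower, of which 65 and 124 differed at least 2-fold. The groups did not overlap for 537 of the 630 higher and 786 of the 834 lower genes, against 34.0% of all genes tested. All 630 and all 834 had the same sign in both batches, so a shared sign adds nothing to a call. The counts rest on the block for batch: with no term for it 64 genes were higher and 144 lower. Without Lgr5+T8- of batch 1 the counts were 295 higher and 455 lower, without Lgr5+T8- of batch 2 they were 419 and 543, without Lgr5-T8- of batch 2 they were 1078 and 1276, and the 4 T8- libraries alone gave 327 higher genes.

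The largest increases among genes of at least 5 CPM formed a mixed set of secreted, junctional, adhesion and signalling proteins. Sfrp1, a secreted Wnt antagonist, stood at 220 and 144 CPM in Lgr5+T8- cells, against 42.5 and 25.9 CPM in Lgr5-T8- cells (log2 fold change 2.42 ± 0.11, adjusted p = 8.72e-07 in edgeR's test). Both Lgr5+T8- libraries lay above both Lgr5-T8- libraries, as for all 15 genes of this set, a separation that the choice by fold change favours. Slpi, a secreted inhibitor of leukocyte proteases, was the most abundant member, at 1452 and 981 CPM in Lgr5+T8- cells, against 357 and 268 CPM in Lgr5-T8- cells (log2 fold change 1.95 ± 0.10). Ocln, the tight-junction protein occludin, was 24.3 and 13.4 CPM in Lgr5+T8- cells, against 4.34 and 3.31 CPM in Lgr5-T8- cells (2.28 ± 0.14 on the log2 scale). Frmpd4, a scaffold protein of synapses, had the highest log2 fold change, 3.28 ± 0.23, with 22.2 and 11.4 CPM in Lgr5+T8- cells, against 2.55 and 0.882 CPM in Lgr5-T8- cells. The remaining members were Ptprd (log2 fold change 1.95), a receptor tyrosine phosphatase; Lrrtm1 (1.84), a synaptic adhesion protein; Sstr1 (1.81), a somatostatin receptor; Myo5b (1.78), a motor of recycling endosomes; Batf (1.76), an AP-1 family transcription factor; Enah (1.53), a regulator of actin assembly; Nrcam (1.53), a cell adhesion molecule; Esyt3 (1.51), an endoplasmic reticulum tether; Kif27, a kinesin; and Il23a (1.47), an interleukin subunit. Lrrtm1 lies within Ctnna2, and Esyt3 overlaps Cep70. With no batch term the adjusted p was 0.0835 for Ptprd, 0.239 for Sstr1, 0.385 for Nrcam, 0.0589 for Kif27 and 0.206 for Il23a.

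The largest decreases were deeper, and several members were close to absent in Lgr5+T8- cells. Serpinb2, an inhibitor of plasminogen activators, was 0.221 and 0.359 CPM in Lgr5+T8- cells, against 46.5 and 30.5 CPM in Lgr5-T8- cells (log2 fold change -7.09 ± 0.45, adjusted p = 0.000114 in edgeR's test). Spock3, a secreted proteoglycan, was 0.252 and 0.518 CPM in Lgr5+T8- cells, against 11.4 and 11.2 CPM in Lgr5-T8- cells (-4.91 ± 0.31). Col9a1, a chain of the cartilage-type collagen IX, was 1.98 and 4.27 CPM in Lgr5+T8- cells, against 45.0 and 49.1 CPM in Lgr5-T8- cells (-3.96 ± 0.23). In each of these genes both Lgr5-T8- libraries lay far above both Lgr5+T8- libraries. Zfhx4, a large zinc-finger homeodomain factor, was 4.57 and 4.47 CPM in Lgr5+T8- cells, against 46.2 and 36.3 CPM in Lgr5-T8- cells (-3.19 ± 0.17). Ror2, a receptor for Wnt5a, was 1.48 and 0.957 CPM in Lgr5+T8- cells, against 8.34 and 12.2 CPM in Lgr5-T8- cells (-3.03 ± 0.28). Pappa2, a protease that cleaves insulin-like growth factor binding proteins, was 4.41 and 3.31 CPM in Lgr5+T8- cells, against 25.6 and 16.2 CPM in Lgr5-T8- cells (-2.43 ± 0.19). The other members reported are Coch (log2 fold change -3.73), cochlin; Trpm3 (-3.01), a cation channel; Lars2 (-3.00), the mitochondrial leucyl-tRNA synthetase; Ptprt (-2.57), a receptor tyrosine phosphatase; Dio2 (-2.44), the enzyme that activates thyroid hormone; Sema3d (-2.39), a secreted guidance cue; and Pde3a (-2.36), a cyclic nucleotide phosphodiesterase.

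Not all of the decreases were equally firm. Lars2 was 103 and 135 CPM in Lgr5+T8- cells, against 1188 and 796 CPM in Lgr5-T8- cells, and its adjusted p was 0.114 without Lgr5-T8- of batch 1 and 0.067 without Lgr5-T8- of batch 2. Trpm3 was 3.53 and 9.93 CPM in Lgr5+T8- cells, against 49.96 and 48.16 CPM in Lgr5-T8- cells, with an adjusted p of 0.0572 without Lgr5-T8hi of batch 2 and 0.0852 in the 4 T8- libraries alone. Each of the other decreases named above kept its call in each of the 8 fits that left out a library and in the fit with no batch term. Ptprtos, an antisense gene, overlaps Ptprt.

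**Figure D1:**
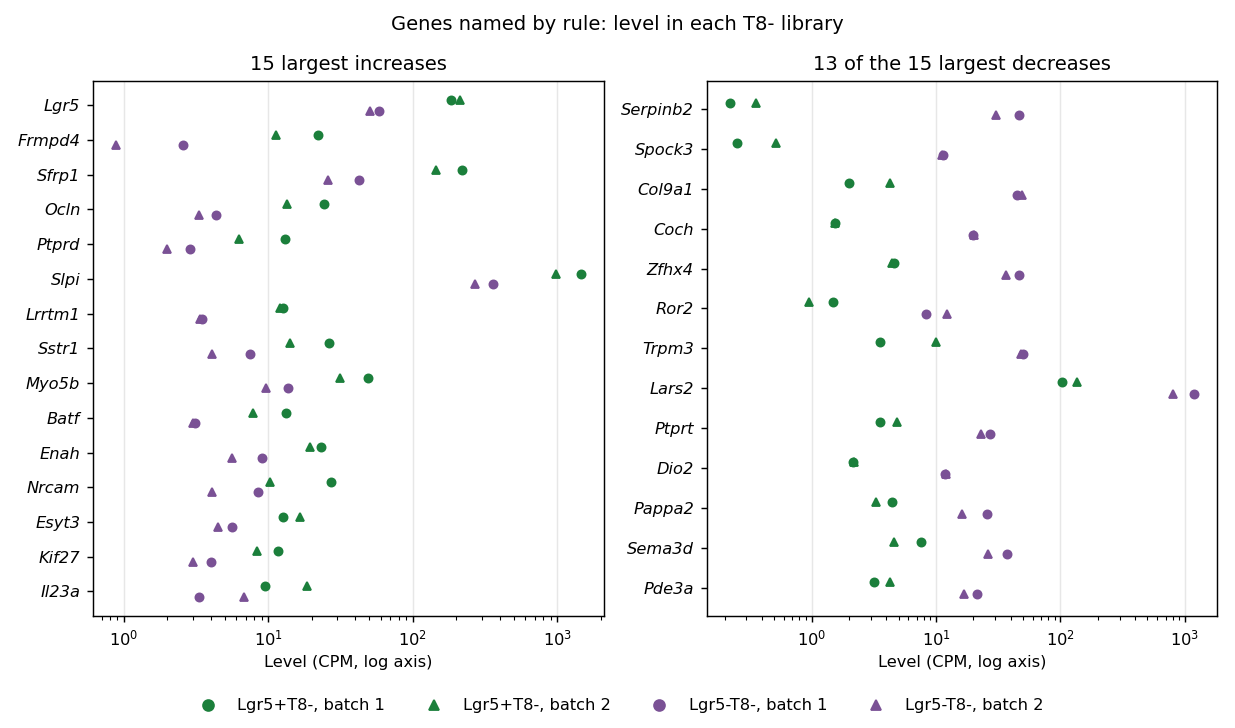
Level of the 15 genes with the highest and 13 of the 15 with the lowest log2 fold change among called genes of at least 5 CPM, in CPM on a log axis; each point is 1 library, Lgr5+T8- in green and Lgr5-T8- in purple, with circles for batch 1 and triangles for batch 2. The 2 groups do not overlap in any of the 28 genes, which were picked for large differences with the same sign in both batches.

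The basement membrane, the sheet of laminin, collagen IV and nidogen on which basal cells rest, had many lower members in Lgr5+T8- cells. Of 27 genes, 11 were lower and 1 was higher by edgeR's test (44.4% called, against 8.86% of all genes tested). The median log2 fold change was -0.44. Lama1, the laminin alpha 1 chain, was 97.3 and 140 CPM in Lgr5+T8- cells, against 390 and 431 CPM in Lgr5-T8- cells (log2 fold change -1.81 ± 0.12, adjusted p = 3.74e-06). Lamc3, a laminin gamma chain, was 2.93 and 2.95 CPM in Lgr5+T8- cells, against 14.5 and 15.5 CPM in Lgr5-T8- cells (-2.35 ± 0.16). Frem2, which links the epithelium to the underlying matrix, was 31.4 and 36.6 CPM in Lgr5+T8- cells, against 133 and 102 CPM in Lgr5-T8- cells (-1.79 ± 0.14). These 3 genes are separated by group in both batches. Of the nidogens, which bridge laminin and collagen IV, Nid1 was lower (log2 fold change -1.10 ± 0.11) and Nid2 higher (0.79 ± 0.13). Other lower members were Lamc1, Col4a3, Col4a4, Frem1 and Col7a1, the anchoring fibril collagen, with log2 fold changes between -1.83 and -0.66. The laminin chains Lama3 and Lamb3 had log2 fold changes of -0.12 ± 0.10 and -0.07 ± 0.09 (adjusted p = 0.535 and 0.717). With no batch term 7 genes of the list were lower and 0 higher, and 2 were higher without Lgr5-T8- of batch 1. Members named here beyond the 4 with the smallest adjusted p in a list were chosen after their values were seen.

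The collagen IV genes are arranged in the genome as divergent pairs, and they are shown here because both members of a pair passed the threshold or both missed it. Col4a1 was 1140 and 1350 CPM in Lgr5+T8- cells, against 2798 and 2675 CPM in Lgr5-T8- cells (log2 fold change -1.14 ± 0.11), and its partner Col4a2 was 881 and 994 CPM in Lgr5+T8- cells, against 1838 and 1780 CPM in Lgr5-T8- cells (-0.95 ± 0.10). The weakly expressed pair Col4a3 and Col4a4 was lower as well, with Col4a3 at 0.945 and 0.917 CPM in Lgr5+T8- cells, against 3.88 and 2.76 CPM in Lgr5-T8- cells (-1.83 ± 0.28). The X-linked pair did not pass the threshold: Col4a5 was 498 and 516 CPM in Lgr5+T8- cells, against 612 and 583 CPM in Lgr5-T8- cells (-0.24 ± 0.10, adjusted p = 0.175), and Col4a6 had a log2 fold change of 0.08 ± 0.11 (adjusted p = 0.717). The annotated starts are 21 bases apart in Col4a1 and Col4a2 on chromosome 8, 72 bases in Col4a3 and Col4a4 on chromosome 1, and 1309 bases in Col4a5 and Col4a6 on chromosome X. These starts are those of GENCODE, where Col4a1 and Col4a2 overlap and Col4a3 and Col4a4 do not. In RefSeq both pairs overlap, and reads from an overlap cannot be told apart. The promoter windows of RefSeq (build GRCm38.p6), from 250 bases before to 50 after the start, are printed 5′ to 3′ on each gene's own strand. The Col4a1 window is chr8:11312777-11313076 on the minus strand and the Col4a2 window chr8:11312555-11312854 on the plus strand, and capitals mark the 78 bases that both windows hold, each as the reverse complement of the other. In the Col4a4 window, chr1:82586800-82587099 on the minus strand, capitals mark the 179 bases inside the annotated Col4a3 gene.
Col4a1: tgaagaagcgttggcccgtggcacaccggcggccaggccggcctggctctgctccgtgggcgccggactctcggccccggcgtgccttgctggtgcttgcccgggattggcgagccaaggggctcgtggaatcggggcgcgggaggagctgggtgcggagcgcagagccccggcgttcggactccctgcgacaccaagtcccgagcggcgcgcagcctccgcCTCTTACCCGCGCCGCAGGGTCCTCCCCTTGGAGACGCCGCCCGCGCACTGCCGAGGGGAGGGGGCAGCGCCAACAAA
Col4a2: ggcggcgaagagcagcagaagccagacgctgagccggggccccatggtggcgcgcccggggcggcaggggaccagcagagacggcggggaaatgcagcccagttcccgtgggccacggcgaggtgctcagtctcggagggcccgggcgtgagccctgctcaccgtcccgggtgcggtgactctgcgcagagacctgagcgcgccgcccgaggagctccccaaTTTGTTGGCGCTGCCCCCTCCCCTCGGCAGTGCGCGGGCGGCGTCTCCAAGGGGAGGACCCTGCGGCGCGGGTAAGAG
Col4a4: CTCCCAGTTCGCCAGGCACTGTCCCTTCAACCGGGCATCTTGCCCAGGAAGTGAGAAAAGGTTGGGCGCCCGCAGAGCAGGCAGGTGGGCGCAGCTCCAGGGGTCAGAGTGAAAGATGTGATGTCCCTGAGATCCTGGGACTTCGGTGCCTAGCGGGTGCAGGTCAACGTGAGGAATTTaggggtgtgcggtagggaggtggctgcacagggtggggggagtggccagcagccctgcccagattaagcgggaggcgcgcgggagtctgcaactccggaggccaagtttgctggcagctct

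Among 29 tested collagens other than type IV, 5 were higher and 9 lower by edgeR's test (48.3% called, against 8.86% of all genes). The median log2 fold change was -0.43, and collagen VI genes went in both directions. Col6a1, a chain of the beaded microfibrils around cells, was 271 and 257 CPM in Lgr5+T8- cells, against 103 and 89.5 CPM in Lgr5-T8- cells (log2 fold change 1.46 ± 0.10, adjusted p = 4.67e-06). Its neighbour on chromosome 10, Col6a2, was 136 and 122 CPM in Lgr5+T8- cells, against 50.5 and 47.6 CPM in Lgr5-T8- cells (1.39 ± 0.10). Col6a6 was lower, at 7.06 and 6.38 CPM in Lgr5+T8- cells, against 25.2 and 25.4 CPM in Lgr5-T8- cells (-1.91 ± 0.16). Col6a3 (log2 fold change -0.78 ± 0.16) and, outside that list, Col6a4 (-0.92 ± 0.11) were lower too. Besides Col9a1, the decreases took in Col11a1, a fibril-nucleating collagen, at 21.0 and 37.5 CPM in Lgr5+T8- cells, against 119 and 120 CPM in Lgr5-T8- cells (-2.07 ± 0.17). Without the batch term 2 collagens were higher and 5 lower.

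**Figure D2:**
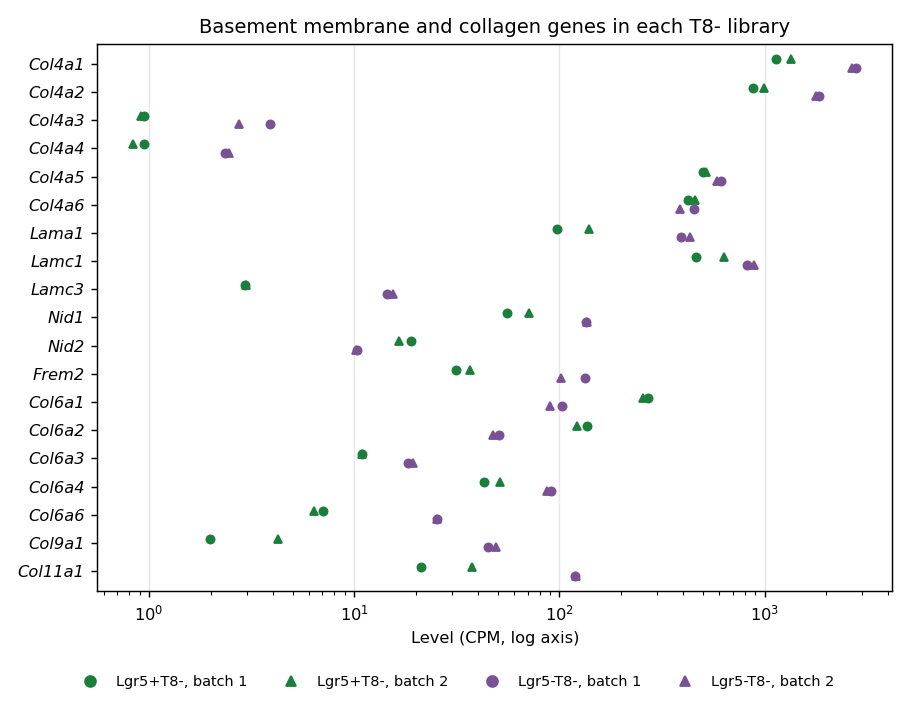
Level of basement membrane and collagen genes in each of the 4 T8- libraries, in CPM on a log axis, with Lgr5+T8- in green above Lgr5-T8- in purple within a row and a symbol for each batch. Col4a1, Col4a2, Lama1 and Frem2 lie to the left in Lgr5+T8- cells, Col6a1 and Col6a2 to the right, and Col4a6 overlaps between the groups.

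Of 19 integrins, 5 were lower by edgeR's test: Itga1, a collagen receptor subunit, was 44.2 and 38.6 CPM in Lgr5+T8- cells, against 87.3 and 69.0 CPM in Lgr5-T8- cells (log2 fold change -0.91 ± 0.11), and Itga8, Itgb3, Itga7 and the laminin receptor subunit Itga6 had values from -0.76 to -0.50. None of the 5 was called with no batch term, 2 integrins were higher without Lgr5-T8- of batch 1, and Itga7 had an adjusted p of 0.116 without Lgr5+T8- of batch 2. Of 37 proteases and inhibitors, 10 were higher and 5 lower. Called genes were 26.3% of the integrins, 40.5% of the proteases and inhibitors and 42.1% of the serpins, against 8.86% of all genes tested. Adamts1, a metalloprotease that cleaves the proteoglycan versican, was 3219 and 2631 CPM in Lgr5+T8- cells, against 1429 and 1236 CPM in Lgr5-T8- cells (1.13 ± 0.10). The aggrecan-cleaving Adamts5 (1.18 ± 0.10), the plasminogen activator Plat (0.78 ± 0.10) and the urokinase receptor Plaur (0.82 ± 0.11) were also higher, whereas Adamts17 was lower (-1.32 ± 0.10). The fit with no batch term gave 1 higher and 1 lower protease, and 3 were lower without Lgr5+T8- of batch 1. Of 19 serpins, 4 were higher, among them Serpinb5 (0.79 ± 0.12), known as maspin, and 4 lower, among them Serpine2 (-0.93 ± 0.12), an inhibitor of thrombin. The count of higher serpins was 1 without Lgr5+T8- of batch 1 or Lgr5-T8- of batch 1 and 2 without Lgr5+T8hi of batch 1 or Lgr5-T8hi of batch 1. The count of lower ones was 7 without Lgr5-T8- of batch 2.

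The contractile programme, by which basal cells squeeze milk from the alveoli, was lower in part. Of 26 genes, 9 were lower and 1 higher by edgeR's test (38.5% called, against 8.86% of all genes tested). The median log2 fold change was -0.19. Myocd, the coactivator of smooth-muscle genes, was the member with the largest decrease, at 1.10 and 0.638 CPM in Lgr5+T8- cells, against 4.52 and 3.27 CPM in Lgr5-T8- cells (log2 fold change -2.18 ± 0.27, adjusted p = 0.000329). The abundant smooth-muscle myosin Myh11 was 3379 and 2573 CPM in Lgr5+T8- cells, against 4622 and 3653 CPM in Lgr5-T8- cells (-0.48 ± 0.10). Mylk, the myosin light chain kinase, and Actg2, the gamma smooth-muscle actin, had log2 fold changes of -0.43 ± 0.10 and -0.44 ± 0.10. For Acta2, the alpha smooth-muscle actin, with 5676 and 5214 CPM in Lgr5+T8- cells, against 6697 and 6760 CPM in Lgr5-T8- cells, the difference missed the threshold (-0.31 ± 0.10, adjusted p = 0.0874). Oxtr, the oxytocin receptor, was the gene that was higher (0.38 ± 0.09). It lost that call without Lgr5+T8- of batch 1, Lgr5-T8- of batch 1, Lgr5+T8hi of batch 1, Lgr5-T8hi of batch 1 or Lgr5-T8hi of batch 2. The count of lower genes was 5 without Lgr5+T8- of batch 2 and in the T8- libraries alone, and 0 with no batch term. CArG boxes, the sites bound by serum response factor, were searched on both strands in the RefSeq promoter windows and found in 5 of 24 windows of contractile genes (Cnn2, Myl6, Myl9, Srf and Vcl), which is 20.8%, against 1.37% of the 15447 windows of tested genes. Windows existed for 21 of the 26 genes and for 5 of the 9 lower ones. The 5 windows of those lower genes held none, and the remaining lower genes could not be searched.

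Of 38 tested potassium channel genes, 12 were lower and 1 was higher (34.2% called, against 8.86% of all genes tested). Their median log2 fold change was -0.58, and 25% of the calcium channel list below was called. Kcnma1, the pore of the large-conductance calcium-activated channel, was 4.38 and 3.47 CPM in Lgr5+T8- cells, against 12.2 and 9.78 CPM in Lgr5-T8- cells (-1.49 ± 0.17, adjusted p = 0.000168 in edgeR's test), and its smooth-muscle subunit Kcnmb1 was 39.4 and 42.1 CPM in Lgr5+T8- cells, against 57.4 and 64.4 CPM in Lgr5-T8- cells (-0.58 ± 0.09). Both channel parts were lower in each batch. Kcne4 (-1.51 ± 0.17), an auxiliary subunit, and Kcnh1 (-0.69 ± 0.10) were lower as well. The count of lower potassium channels was 5 without Lgr5+T8- of batch 1 or 2, and 2 with no batch term. The higher gene was Kcnd3, at 0.472 and 0.638 CPM in Lgr5+T8- cells, against 0.182 and 0.0735 CPM in Lgr5-T8- cells, and no potassium channel was higher when any library except Lgr5-T8- of batch 1 was left out. Of 40 calcium-release, calcium-entry and TRP channel genes, 8 were lower, among them Cacna1d (-0.72 ± 0.12), Cacna1h (-1.06 ± 0.19) and the calcium store receptor Itpr1 (-0.56 ± 0.11), and 2 were higher, among them Trpc1 (0.82 ± 0.15). The lower count was 4 without Lgr5+T8- of batch 1 or Lgr5-T8- of batch 1, 5 without Lgr5+T8- of batch 2 and 1 with no batch term. The higher count was 1 without Lgr5+T8- of batch 1, Lgr5+T8- of batch 2 or any 1 of the T8hi libraries, and Trpc1 had an adjusted p of 0.0528 without Lgr5+T8- of batch 2.

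Epithelial identity genes were called in both directions. The called share was 27.3% of the basal list and 52.2% of the keratins, against 8.86% of all genes tested. Of 22 basal identity genes, 3 were higher and 3 lower (median log2 fold change -0.06). Krt17 was 3830 and 3692 CPM in Lgr5+T8- cells, against 2621 and 2377 CPM in Lgr5-T8- cells (0.59 ± 0.11), Mme, the surface peptidase CD10, was 553 and 513 CPM in Lgr5+T8- cells, against 359 and 301 CPM in Lgr5-T8- cells (0.70 ± 0.10), and Vim, vimentin, was higher by 0.74 ± 0.12. Lower were Nrg1, a ligand of ErbB receptors (-1.19 ± 0.10), Igfbp5 (-0.58 ± 0.10) and Itga6. None of the 6 was called with no batch term, and Igfbp5 had an adjusted p of 0.0524 without Lgr5+T8- of batch 2. In this list 5 were lower without Lgr5-T8- of batch 1 and 5 higher without Lgr5-T8- of batch 2. Krt14 (0.35 ± 0.10, adjusted p = 0.0548), Krt5 (0.32 ± 0.10, 0.0647) and Trp63 (-0.21 ± 0.09, 0.206) missed the threshold of edgeR's test. Of 23 tested keratins, 6 were higher and 6 lower: the epidermal differentiation keratin Krt1 was 0.315 and 0.399 CPM in Lgr5+T8- cells, against 6.85 and 4.19 CPM in Lgr5-T8- cells (-3.95 ± 0.33), Krt10 was lower (-1.11 ± 0.16) and Krt16 higher (0.78 ± 0.11). Krt77 and Krt2 had no count in either Lgr5+T8- library and were at least 6.11-fold and 3.39-fold lower in the mean, set against a mean floor of 3 counts per library. The keratin counts were 2 higher and 3 lower without Lgr5+T8- of batch 1, 3 lower without Lgr5+T8- of batch 2 and 2 higher without Lgr5-T8- of batch 1.

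Pan-luminal genes, which are shared by the luminal cell types, were on the higher side: 8 of 16 were higher. This is 50% called, against 8.86% of all genes tested, and the median log2 fold change was 0.41. Muc1 was 21.5 and 14.4 CPM in Lgr5+T8- cells, against 12.0 and 8.60 CPM in Lgr5-T8- cells (0.80 ± 0.11, adjusted p = 0.000938 in edgeR's test). The protease inhibitor Spint1 was 22.9 and 17.2 CPM in Lgr5+T8- cells, against 13.1 and 11.6 CPM in Lgr5-T8- cells (0.70 ± 0.11). The luminal keratin Krt18 was 427 and 206 CPM in Lgr5+T8- cells, against 210 and 154 CPM in Lgr5-T8- cells (0.73 ± 0.14), so its second Lgr5+T8- library lay just below the first Lgr5-T8- library. Epcam, Krt8, Krt19, Cldn3 and Cldn7 were higher by 0.41 to 1.14. Krt18 had a log2 fold change of 0.42 without Lgr5+T8- of batch 1 (adjusted p = 0.0865) and an adjusted p of 0.164 without Lgr5-T8- of batch 1. Cldn7 had 0.54 without Lgr5+T8- of batch 1 (adjusted p = 0.165), and its adjusted p was 0.331 and 0.098 without Lgr5-T8- of batches 1 and 2 and 0.0683 and 0.0559 without Lgr5+T8hi of batches 1 and 2. For Epcam it was 0.0592 and 0.157 without Lgr5+T8- of batches 1 and 2, and 0.0652 and 0.0566 without Lgr5-T8hi of batches 1 and 2. The count of higher genes was 2 without Lgr5+T8- of batch 1, 3 without Lgr5-T8- of batch 1, 4 without Lgr5+T8hi of batch 1 or Lgr5-T8hi of batch 1, 5 without Lgr5+T8hi of batch 2, 4 in the T8- libraries alone and 0 with no batch term. Within batch 1 the median difference was 0.63, and within batch 2 it was 0.30. Summed levels were 2306 to 3402 CPM in Lgr5+T8- cells, against 1869 to 2443 CPM in Lgr5-T8- cells, and overlapped. Tight junction genes, 4 higher and 2 lower of 26 with Ocln and Jam3 (-1.50 ± 0.20) at the extremes, and hormone-sensing luminal genes, 1 higher (Tbx3, 0.69 ± 0.10) and 1 lower (Greb1, -0.93 ± 0.13) of 18, were called in both directions. Called genes made up 23.1% of the tight junction list and 11.1% of the hormone-sensing list, against 8.86% of all genes tested. The count of higher tight junction genes was 1 without Lgr5+T8- of batch 1 and 2 without Lgr5+T8hi of batch 1 or 2, Lgr5-T8- of batch 2 or Lgr5-T8hi of batch 1. That of lower ones was 1 without Lgr5+T8- of batch 2, Lgr5+T8hi of batch 1 or 2 or Lgr5-T8- of batch 2, and 4 without either Lgr5-T8hi library. The hormone-sensing count reached 4 lower without Lgr5+T8- of batch 1, and 2 higher without either Lgr5-T8- library.

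Of 15 tested luminal progenitor and milk genes, 2 were lower (13.3% called, against 8.86% of all genes tested), and the median log2 fold change was -0.70. Mfge8, a milk-fat globule protein that basal cells also make, was 425 and 522 CPM in Lgr5+T8- cells, against 710 and 907 CPM in Lgr5-T8- cells (-0.77 ± 0.09, adjusted p = 0.000333 in edgeR's test). Csn3, kappa-casein, was 10.2 and 5.54 CPM in Lgr5+T8- cells, against 15.9 and 11.5 CPM in Lgr5-T8- cells (-0.81 ± 0.15). The count was 5 without Lgr5+T8- of batch 1 and 5 in DESeq2, and 0 with no batch term, and Csn3 had an adjusted p of 0.0536 without Lgr5-T8- of batch 1. In this list 1 member was higher without Lgr5+T8- of batch 2 or Lgr5-T8- of batch 2. Summed levels of the list were 1481 to 1722 CPM in Lgr5+T8- cells, against 2170 to 2221 CPM in Lgr5-T8- cells, with no overlap, and Csn1s2a was at 0 in all 4 libraries. Mfge8 and Lcn2 made up most of each sum, so it says little about the other members. Lcn2 was 1189 and 893 CPM in Lgr5+T8- cells, against 1370.5 and 1154 CPM in Lgr5-T8- cells. It overlapped between the groups and was not called (-0.29 ± 0.10, adjusted p = 0.103 in edgeR's test).

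Transcription factors of epithelial-mesenchymal transition were lower in 5 of 16 cases and higher in 1 (37.5% called, against 8.86% of all genes). Zeb1 was 2.11 and 1.44 CPM in Lgr5+T8- cells, against 5.06 and 4.74 CPM in Lgr5-T8- cells (log2 fold change -1.45 ± 0.23), Zeb2 was lower by a like amount (-1.58 ± 0.28), and Prrx1 (-0.73 ± 0.14), Foxc2 (-2.72 ± 0.48) and Tcf4 (-0.41 ± 0.10) were lower too. Foxc2 had an adjusted p of 0.0826 without Lgr5+T8- of batch 1. Sox9, a progenitor factor on the same list, was 358 and 251 CPM in Lgr5+T8- cells, against 258 and 180 CPM in Lgr5-T8- cells (0.48 ± 0.09), and overlapped between the groups. Several of these factors, Zeb1 and Zeb2 among them, are also expressed by stromal and endothelial cells. Of 18 endothelial markers 3 were lower, with sums of 256 to 362 CPM in Lgr5+T8- cells, against 448 to 453 CPM in Lgr5-T8- cells, and of 12 pericyte markers 5 were lower, with sums of 300 to 467 CPM in Lgr5+T8- cells, against 327 to 429 CPM in Lgr5-T8- cells. No marker of either list was at 0. In T8hi cells Zeb1 had a log2 fold change of 0.50 ± 0.19 (adjusted p = 0.233 in edgeR's test), and the endothelial markers had a median of 1.19. The part of such cells in the lower levels of these factors was not tested. The count of lower factors was 2 without Lgr5+T8- of batch 1 or with no batch term and 3 without Lgr5-T8- of batch 1. The higher count was 0 without Lgr5+T8- of batch 1 and 2 without Lgr5-T8- of batch 2. Of the regulators of organ patterning, Tbx2 was 10.1 and 8.73 CPM in Lgr5+T8- cells, against 34.4 and 33.3 CPM in Lgr5-T8- cells (-1.84 ± 0.12, adjusted p = 3.74e-06 in edgeR's test), and Eya1 was 3.28 and 3.95 CPM in Lgr5+T8- cells, against 12.8 and 14.6 CPM in Lgr5-T8- cells (-1.93 ± 0.18). In both genes the libraries of a group lay close together and the groups apart. Dach1 was lower (-0.92 ± 0.14), and Eya2 was higher (0.34 ± 0.09), a call lost when any library except Lgr5-T8- of batch 2 was left out. Among 26 tested Hox and T-box genes only Tbx2 and Tbx3 passed the threshold. They are 7.69% of that list, below the 8.86% of all genes tested. Of 22 reported mammary stem cell markers 3 were higher, namely Sox9 and the sort markers Lgr5 and Tspan8, so that Sox9 is the only one of them that the sort did not use. The list had 5 lower genes, so 36.4% of it was called. The semaphorin and VEGF co-receptor Nrp1 was 5.92 and 6.86 CPM in Lgr5+T8- cells, against 14.7 and 16.6 CPM in Lgr5-T8- cells (-1.29 ± 0.12). That list gave 5 higher and 3 lower without Lgr5-T8- of batch 2 and 3 lower without Lgr5+T8hi of batch 2. Procr, a surface marker on the same list, was 59.7 and 21.6 CPM in Lgr5+T8- cells, against 61.1 and 23.9 CPM in Lgr5-T8- cells (-0.08 ± 0.11, adjusted p = 0.703).

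In the Wnt pathway, called genes made up 23.5% of the secreted inhibitors, 24.1% of the ligands and receptors and 27.8% of the targets and nuclear factors, against 8.86% of all genes tested. The share was 12.5% in the list of Lgr receptors and R-spondins. Of 17 tested secreted inhibitors, 3 were higher and 1 lower. As a list they did not rise: the median log2 fold change was -0.23, with 11 negative and 6 positive values. Besides Sfrp1, Sfrp2 was 27.8 and 25.1 CPM in Lgr5+T8- cells, against 11.8 and 14.3 CPM in Lgr5-T8- cells (1.03 ± 0.12), and Dkk3 was 303 and 281 CPM in Lgr5+T8- cells, against 170 and 158 CPM in Lgr5-T8- cells (0.83 ± 0.09, adjusted p = 0.000159 in edgeR's test). All 3 kept their call with no batch term and in each fit that left out a library. Igfbp4, which can also inhibit Wnt receptors, was 34.8 and 40.8 CPM in Lgr5+T8- cells, against 87.4 and 108 CPM in Lgr5-T8- cells (-1.37 ± 0.09), and 4 inhibitors were lower without Lgr5-T8- of batch 1 and 2 without Lgr5-T8- of batch 2. Among 29 ligands and receptors, 3 were higher and 4 lower. The ligand Wnt11 was 267 and 228 CPM in Lgr5+T8- cells, against 123 and 109 CPM in Lgr5-T8- cells (1.09 ± 0.10), and Wnt9a was 11.1 and 13.2 CPM in Lgr5+T8- cells, against 4.85 and 5.96 CPM in Lgr5-T8- cells (1.17 ± 0.13). Wnt3 had no count in either Lgr5+T8- library, against 0.515 and 1.54 CPM in Lgr5-T8- cells. Its mean was at least 9.62-fold lower, set against the mean floor of 3 counts per library, a bound that does not hold within each batch. With no batch term its adjusted p was 0.0545 in edgeR's test. With no batch term 1 ligand or receptor was higher and 1 lower.

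Of the other R-spondin receptors, Lgr4 was 230 and 250 CPM in Lgr5+T8- cells, against 202 and 199 CPM in Lgr5-T8- cells (0.26 ± 0.09, adjusted p = 0.112 in edgeR's test), and Lgr6 had a log2 fold change of -0.33 ± 0.13 (0.15). Rspo4, an R-spondin, had no count in either Lgr5+T8- library, against 0.485 and 0.331 CPM in Lgr5-T8- cells. It was at least 3.81-fold lower, the only one of 8 tested genes of the receptor and R-spondin list past the threshold, with an adjusted p of 0.188 and 0.0528 without Lgr5+T8- of batches 1 and 2 and 0.0557 in DESeq2. That list had 2 lower genes without Lgr5+T8- of batch 2 and 3 without Lgr5-T8- of batch 2. Of 18 Wnt targets and nuclear factors, 4 were lower and 1 higher. Tnfrsf19, known as Troy and a marker of intestinal stem cells, was 0.693 and 1.28 CPM in Lgr5+T8- cells, against 6.58 and 8.24 CPM in Lgr5-T8- cells (-2.97 ± 0.31). Axin2, the most used readout of the pathway, was 24.2 and 24.7 CPM in Lgr5+T8- cells, against 27.4 and 36.1 CPM in Lgr5-T8- cells, with no overlap but short of the threshold (-0.36 ± 0.11, adjusted p = 0.066). The count of lower targets was 2 without Lgr5+T8- of batch 2, Lgr5-T8- of batch 2, Lgr5+T8hi of batch 1 or Lgr5+T8hi of batch 2, and 0 with no batch term. The higher one, Sox9, had an adjusted p of 0.0522 without Lgr5+T8- of batch 1, and 3 targets were higher without Lgr5-T8- of batch 2. The TCF/LEF motif CTTTGAT or CTTTGTT, on either strand, was found in 44 of 628 promoter windows of higher genes (7.01%) and 62 of 834 windows of lower genes (7.43%), against 6.55% of the windows of all genes tested. A gene can have several windows or none: these belong to 468 of the 630 higher, 602 of the 834 lower and 12194 of the 16526 tested genes.

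**Figure D3:**
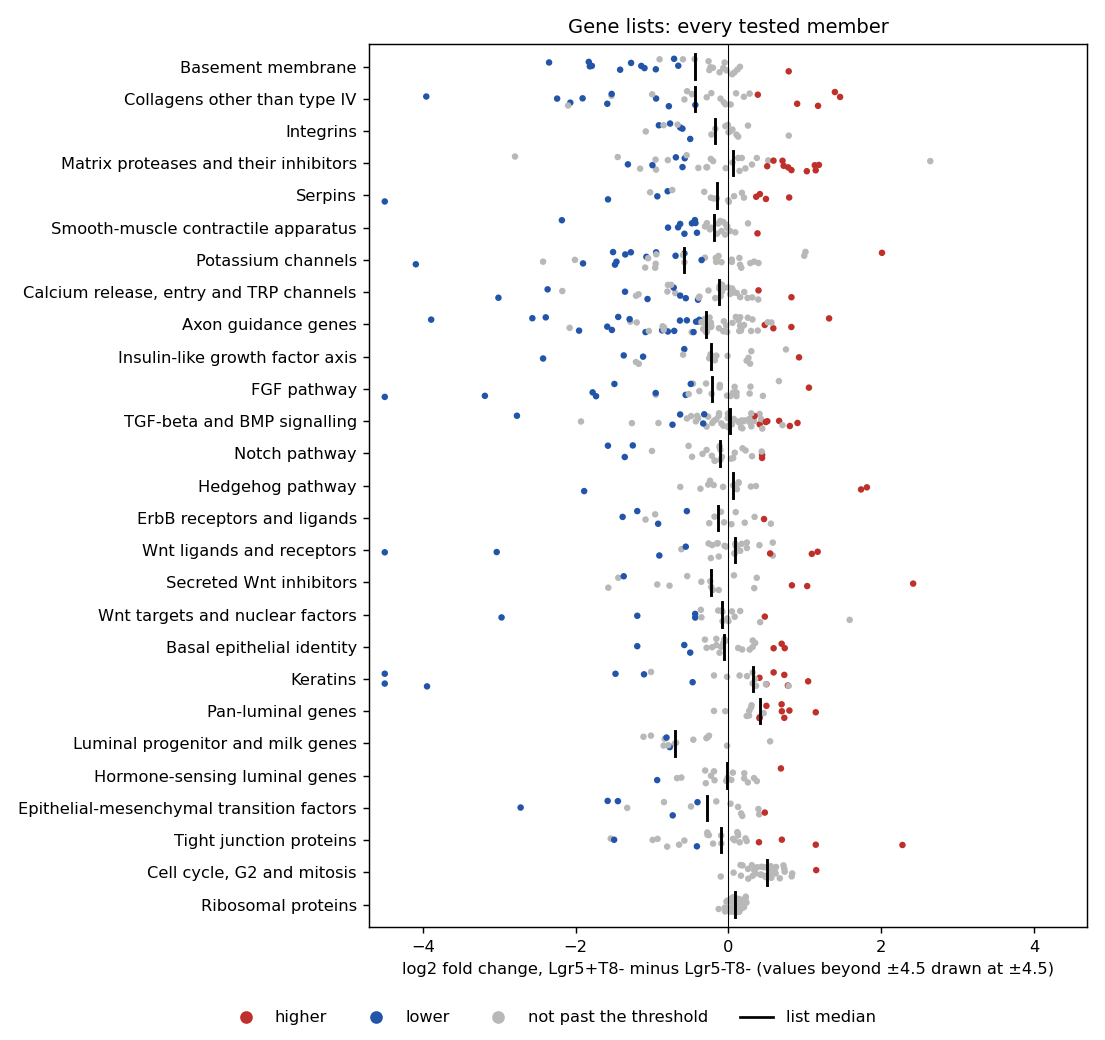
Log2 fold change, Lgr5+T8- minus Lgr5-T8-, of every tested member of the gene lists named at the left, with called members in red (higher) or blue (lower), other members in grey and the list's median as a black bar. Basement membrane, potassium channel and luminal progenitor genes have medians of -0.44, -0.58 and -0.70, pan-luminal genes lie at 0.41, and ribosomal proteins cluster at 0.08.

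Guidance cues and their receptors formed another group with many decreases: 18 of 63 were lower and 4 higher. That is 34.9% called, against 8.86% of all genes tested, with a median log2 fold change of -0.30. Sema3d was 7.59 and 4.59 CPM in Lgr5+T8- cells, against 37.5 and 26.2 CPM in Lgr5-T8- cells. Slit2, a secreted ligand of Robo receptors, was 43.31 and 37.96 CPM in Lgr5+T8- cells, against 128 and 95.0 CPM in Lgr5-T8- cells (-1.44 ± 0.12, adjusted p = 2.35e-05 in edgeR's test). Sema3a, Sema3g, Sema7a, Nrp2, Slit3 and Robo2 were lower too, by -3.89 to -0.54. Against this trend, the netrin gene Ntn4 was 95.4 and 69.7 CPM in Lgr5+T8- cells, against 37.1 and 28.9 CPM in Lgr5-T8- cells (1.32 ± 0.10), and Ntn1 was higher as well (0.82 ± 0.14). A fit with no batch term gave 5 lower and 1 higher, and 2 were higher without Lgr5+T8- of batch 1.

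Called genes made up 26.3% of the insulin-like growth factor axis, 33.3% of the FGF pathway and 31.25% of the ErbB list, against 8.86% of all genes tested. In the insulin-like growth factor axis, 4 of 19 genes were lower and 1 was higher: besides Igfbp4, Igfbp5 and Pappa2, Igfbp2 was 88.0 and 72.7 CPM in Lgr5+T8- cells, against 165 and 183 CPM in Lgr5-T8- cells (-1.12 ± 0.12), whereas Igfbp6 was higher (0.92 ± 0.14). The count of lower genes was 7 without Lgr5-T8- of batch 2, and that of higher genes 2 without either Lgr5-T8- library. In the FGF pathway the receptor Fgfr3 was 122 and 122 CPM in Lgr5+T8- cells, against 61.3 and 56.1 CPM in Lgr5-T8- cells (1.05 ± 0.11), the receptor Fgfr4 was lower (-1.49 ± 0.20), and the pathway's feedback targets Etv5 (-0.95 ± 0.12) and Spry4 (-0.56 ± 0.10) were lower, among 8 lower genes of 27. That count was 5 and 4 without Lgr5+T8- of batches 1 and 2, and 0 with no batch term. Of 16 ErbB receptors and ligands, 4 were lower, with Nrg1, at 24.7 and 12.4 CPM in Lgr5+T8- cells, against 59.1 and 26.9 CPM in Lgr5-T8- cells, and the ligands Epgn (-1.39 ± 0.18) and Ereg (-0.92 ± 0.17), while the ligand Hbegf was higher (0.47 ± 0.09). With no batch term the adjusted p of Nrg1 was 0.52 and 1 gene of the list was lower. Hbegf had an adjusted p of 0.0715 without Lgr5+T8- of batch 1, and Spry4 one of 0.0533 without Lgr5+T8- of batch 2.

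Notch3 was the Notch receptor that differed, at 18.1 and 17.8 CPM in Lgr5+T8- cells, against 52.1 and 40.4 CPM in Lgr5-T8- cells (-1.36 ± 0.14, adjusted p = 0.000168 in edgeR's test), together with the target gene Heyl (-1.58 ± 0.22) and the ligand Dlk2 (-1.25 ± 0.21). Hey1 and Hes1, also targets, were higher by 0.44 each. The count of higher Notch genes was 0 without Lgr5+T8- of batch 1, Lgr5-T8- of batch 1, Lgr5+T8hi of batch 1 or Lgr5-T8hi of batch 1 and 1 without Lgr5+T8hi of batch 2, and with no batch term 1 gene of the 25 was lower and 0 were higher. In the Hedgehog pathway the transcription factors Gli1 and Gli2 were higher and Hhip, an inhibitor of the ligands, was lower. Gli1 was 9.23 and 3.83 CPM in Lgr5+T8- cells, against 2.00 and 1.84 CPM in Lgr5-T8- cells (1.74 ± 0.30). Gli2 was 4.16 and 3.31 CPM in Lgr5+T8- cells, against 1.03 and 1.10 CPM in Lgr5-T8- cells (1.81 ± 0.28), and Hhip was -1.89 ± 0.34 on the log2 scale. These were the 3 calls among 15 genes, or 20%, the same share as in the Notch list, against 8.86% of all genes tested. Gli1 had a log2 fold change of 1.06 without Lgr5+T8- of batch 1 and an adjusted p of 0.178 without Lgr5-T8- of batch 1, and Hhip had an adjusted p of 0.0592 without Lgr5+T8- of batch 1. Of 52 TGF-beta and BMP genes, 7 were higher and 5 lower, which is 23.1% called. They were led by Ltbp2 (0.66 ± 0.11), Ltbp1 (-0.63 ± 0.11), Tgfb1 (0.51 ± 0.09) and Id3 (0.90 ± 0.16). Leaving out a library brought the higher count down to 1 (Lgr5+T8- of batch 1), 3 (Lgr5+T8hi of batch 1 or Lgr5-T8hi of batch 1) or 4 (Lgr5+T8hi of batch 2 or Lgr5-T8hi of batch 2). The lower count went down to 1 (Lgr5+T8- of batch 1) or 3 (Lgr5+T8- of batch 2 or any T8hi library), and no gene was called with no batch term. Ltbp2, Ltbp1 and Tgfb1 were among those that lost their call without Lgr5+T8- of batch 1.

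Among 26 tetraspanins other than Tspan8, 5 were lower and 3 higher. This is 30.8% called, beside 25% of the phosphatases below, against 8.86% of all genes tested. Upk1b, a uroplakin, was 5.07 and 6.50 CPM in Lgr5+T8- cells, against 17.1 and 18.9 CPM in Lgr5-T8- cells (-1.65 ± 0.16). Tspan15 (-0.85 ± 0.14) and Tspan5 (-0.63 ± 0.09) were lower, and Tspan17 was higher (1.28 ± 0.18). The higher count was 1 without Lgr5+T8- of batch 1, Lgr5+T8- of batch 2, Lgr5+T8hi of batch 1, Lgr5-T8hi of batch 1 or Lgr5-T8hi of batch 2, and 5 without Lgr5-T8- of batch 2. The lower count was 3 without Lgr5+T8- of batch 1. The fit with no batch term had 2 lower ones. The receptor tyrosine phosphatases Ptprd, Ptpru (0.62 ± 0.10) and Ptprz1 were higher and Ptprt was lower, of 16 tested, and none of the 3 increases passed with no batch term. Ptprz1, at 64.3 and 46.6 CPM in Lgr5+T8- cells, against 49.5 and 25.1 CPM in Lgr5-T8- cells, had a log2 fold change of 0.61, and of 0.39 without Lgr5-T8- of batch 2. Its adjusted p was 0.0828 there, 0.115 without Lgr5+T8- of batch 1 and 0.158 without Lgr5+T8- of batch 2. In this list 2 phosphatases were lower without Lgr5-T8- of batch 2.

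Genes of the cell cycle showed a difference that was unlike in the 2 batches. Called genes were 5.26% of the G2 and mitosis list and 3.125% of the G1/S list. They were 5.26% of the inhibitors and quiescence genes, and all 3 shares were below the 8.86% of all genes tested. Of 38 genes of G2 and mitosis, 2 were higher, Kif20a (0.53 ± 0.15) and Nusap1 (1.15 ± 0.29), and the median log2 fold change was 0.51. Within batch 1 the median difference was -0.24 and within batch 2 it was 1.05. The proliferation marker Mki67 was 28.1 and 127 CPM in Lgr5+T8- cells, against 58.0 and 69.4 CPM in Lgr5-T8- cells, so the highest and the lowest values were both in Lgr5+T8- cells (-0.10 ± 0.50, adjusted p = 0.936). The count of higher genes was 14 without Lgr5+T8- of batch 1, 5 without Lgr5-T8- of batch 1, 1 without Lgr5+T8hi of batch 1, Lgr5+T8hi of batch 2 or Lgr5-T8hi of batch 2, and 0 without Lgr5+T8- of batch 2, Lgr5-T8- of batch 2 or Lgr5-T8hi of batch 1. Without Lgr5+T8- of batch 2 the log2 fold change was 0.26 for Kif20a and 0.47 for Nusap1. Of 32 G1/S genes only the replication licensing factor Cdc6 was higher (0.72 ± 0.19), with 13 at an unadjusted p under 0.05. Cdc6 lost its call in each of the 8 fits that left out a library, while 5 genes of the list were higher and 1 lower without Lgr5-T8- of batch 2. Of 19 inhibitors and quiescence genes, Cdkn2d was higher (0.59 ± 0.12), but not without Lgr5+T8- of batch 1 or Lgr5-T8- of batch 1. In this list 5 were higher without Lgr5-T8- of batch 2, and 1 was lower without Lgr5+T8- of batch 1.

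**Figure D4:**
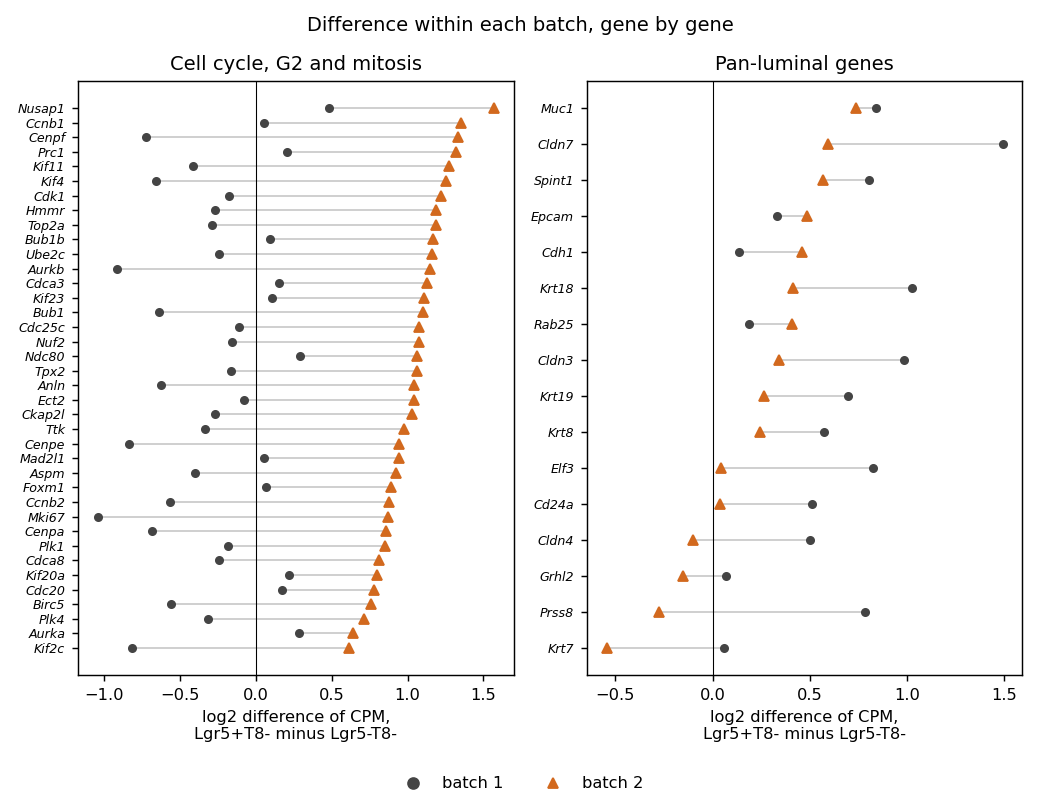
Difference of log2 CPM, Lgr5+T8- minus Lgr5-T8-, within each batch for genes of G2 and mitosis (left) and pan-luminal genes (right); circles are batch 1, triangles batch 2, and a line joins the 2 values of a gene. All G2 and mitosis genes lie to the right of 0 in batch 2 and are spread around 0 in batch 1, with medians of 1.05 and -0.24, and the pan-luminal genes have medians of 0.30 in batch 2 and 0.63 in batch 1.

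None of 59 ribosomal protein genes and none of 54 oxidative phosphorylation genes passed the threshold or had an unadjusted p under 0.05 in edgeR's test, with no call in DESeq2 or limma-voom, and their median log2 fold changes were 0.08 and 0.04. Of 22 cholesterol synthesis genes none was called by any of the 3 tools, and at an unadjusted p under 0.05 the test found 1 higher and 1 lower. Without Lgr5-T8- of batch 2, 14 ribosomal genes and 1 oxidative phosphorylation gene were higher and 2 cholesterol genes lower, and without Lgr5-T8- of batch 1, 1 cholesterol gene was higher. Of 29 immediate-early and dissociation-response genes, which rise when tissue is taken apart, Dusp1 was higher, at 2052 and 1467 CPM in Lgr5+T8- cells, against 1375 and 1059 CPM in Lgr5-T8- cells (0.52 ± 0.10). The call was lost without Lgr5+T8- of batch 1, whereas 7 genes of that list were higher without Lgr5-T8- of batch 2, and 2 higher and 2 lower without Lgr5-T8- of batch 1. Of 24 glycolysis and hypoxia genes, 3 were higher, with the glucose transporter Slc2a1 (0.49 ± 0.09), and Egln3, an oxygen sensor, was lower (-0.60 ± 0.11). The higher count was 1 without Lgr5+T8- of batch 1, where Slc2a1 had an adjusted p of 0.0687, and the lower count was 0 without Lgr5+T8- of batch 2 and 3 without Lgr5-T8- of batch 2. The called share was 3.45% of the dissociation-response list, 16.7% of the glycolysis list and 7.41% of the interferon list, against 8.86% of all genes tested. Of 27 interferon-stimulated genes, Rsad2 was lower (-1.56 ± 0.27) and Irf9 higher (0.33 ± 0.09). Irf9 lost its call without any library except Lgr5-T8- of batch 2, where 2 genes were higher, and 2 genes were lower without Lgr5+T8- of batch 1. Called genes made up 24.3% of 37 cytokine and receptor genes, against 8.86% of all genes tested: 4 were higher, with the chemokines Cxcl14, at 4101 and 3386 CPM in Lgr5+T8- cells, against 2551 and 2421 CPM in Lgr5-T8- cells, and Cxcl2 (0.83 ± 0.11), and 5 were lower. These counts moved to 2 lower without Lgr5+T8- of batch 1, 2 higher and 3 lower without Lgr5+T8- of batch 2, and 8 higher without Lgr5-T8- of batch 2. None was called with no batch term, and Cxcl14 had an adjusted p of 0.0532 without Lgr5+T8- of batch 1.

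Markers of other cell types were detected in both groups. The called share was 16.7% of the endothelial, 44.4% of the fibroblast and 50% of the pericyte markers, against 8.86% of all genes tested. The 18 endothelial markers summed to 256 to 362 CPM in Lgr5+T8- cells, against 448 to 453 CPM in Lgr5-T8- cells, with no overlap. Of these, 3 were lower, namely Lyve1 (-1.97 ± 0.20), Cd34 (-0.97 ± 0.15) and Kdr (-1.60 ± 0.36), and the median log2 fold change was -0.82. Their count was 6 without Lgr5+T8- of batch 1, 11 without Lgr5-T8hi of batch 1, 12 without Lgr5-T8hi of batch 2, 6 in DESeq2 and 11 in the T8- libraries alone. Kdr lost its call without either T8- library of batch 2, without Lgr5-T8- of batch 1 and without either Lgr5+T8hi library. The part of such cells in the lower levels of Nrp1, Nrp2 and other genes that endothelium also expresses was not tested. Fibroblast markers summed to 1323 to 1367 CPM in Lgr5+T8- cells, against 1224 to 1397 CPM in Lgr5-T8- cells, and overlapped, with 3 of 18 higher and 5 lower. The proteoglycan Dcn was 88.8 and 121 CPM in Lgr5+T8- cells, against 279 and 396 CPM in Lgr5-T8- cells (-1.68 ± 0.15), whereas Mfap5 (1.85 ± 0.21) and Gsn (0.65 ± 0.09) were higher. Each library of the T8- groups, left out in turn, brought the lower count to 2. Pericyte markers, which overlap with the contractile list, summed to 300 to 467 CPM in Lgr5+T8- cells, against 327 to 429 CPM in Lgr5-T8- cells. Of 12 tested, 5 were lower, namely Notch3, Anpep, Cspg4, Des and Pdgfrb, while Mcam was higher (0.62 ± 0.11). Without Lgr5+T8- of batch 1, 3 were lower and none higher.

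Leukocyte markers summed to 57.2 to 88.3 CPM in Lgr5+T8- cells, against 64.6 to 110 CPM in Lgr5-T8- cells, with Cd3e, Cd8a, Ms4a1 and Nkg7 at or under the floor of 3 counts in all 4 libraries. None of 21 was called by edgeR (5 were lower at an unadjusted p under 0.05) or limma-voom, 1 was lower in DESeq2 and 1 without Lgr5+T8- of batch 1, and 2 without Lgr5-T8- of batch 2. Schwann cell markers summed to 832 to 1010 CPM in Lgr5+T8- cells, against 837 to 1009 CPM in Lgr5-T8- cells. None of 14 was called by edgeR (7 were lower at an unadjusted p under 0.05) or limma-voom, 2 were lower in DESeq2, 1 was lower without Lgr5+T8- of batch 1 or 2 or Lgr5-T8- of batch 2, and 3 were lower without Lgr5-T8- of batch 1 or either Lgr5-T8hi library. Adipocyte markers summed to 65.3 to 104 CPM in Lgr5+T8- cells, against 107 to 134 CPM in Lgr5-T8- cells, with Cidec and Retn at or under the floor and only Plin4 lower (-2.18 ± 0.14) of 9 tested. Erythroid markers summed to 2.15 to 4.35 CPM in Lgr5+T8- cells, against 7.25 to 8.57 CPM in Lgr5-T8- cells, with Slc4a1 at 0. Haemoglobin genes Hbb-bs and Hbb-b1 were lower, but they are near-identical copies whose reads the counting could split. Of 5 erythroid genes, 4 were lower without Lgr5+T8- of batch 1, 0 without Lgr5+T8- of batch 2 or Lgr5+T8hi of batch 1, and 1 without Lgr5+T8hi of batch 2 or either Lgr5-T8- library. Without Lgr5+T8- of batch 1 the log2 fold change was -3.46 for Hbb-bs and -2.84 for Hbb-b1, and without Lgr5+T8- of batch 2 it was -1.28 and -1.05. Epidermal and hair follicle markers summed to 475 to 556 CPM in Lgr5+T8- cells, against 384 to 440 CPM in Lgr5-T8- cells, with 3 higher and 4 lower of 15, and Flg at 0 in all 4 libraries. Those counts were 1 higher and 2 lower without Lgr5+T8- of batch 1 or Lgr5-T8- of batch 1, 1 higher without Lgr5+T8- of batch 2, and 2 lower without Lgr5-T8- of batch 2. The called share was 11.1% of adipocyte, 40% of erythroid, 46.7% of epidermal and 5.88% of skeletal muscle markers, against 8.86% of all genes tested. Skeletal muscle markers stayed at or below 25.4 CPM in sum, Des being the only member of 17 that was called. No member was lower without Lgr5+T8- of batch 1, and 3 were lower without Lgr5-T8- of batch 2.

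To ask where the Lgr5-associated difference depended on Tspan8, it was compared with the same contrast among T8hi cells. The contrasts compare different libraries but come from the same fit, with a shared batch term and spread, so their calls are not independent. In the T8hi contrast, 379 genes were higher (2.29%) and 173 lower (1.05%) in Lgr5+T8hi than in Lgr5-T8hi cells, together 3.34%. The genes higher in both contrasts were 125, which is 19.8% of the T8- list and 33.0% of the T8hi list, and the genes lower in both were 121, or 14.5% and 69.9%. A further 40 genes that were lower in Lgr5+T8- cells were higher in Lgr5+T8hi cells. The difference between the 2 effects was tested in the same fit: the effect in T8- cells was above that in T8hi cells for 60 genes (0.363%) and below it for 361 (2.18%), in all 2.55%. Of the 630 higher genes 54 (8.57%) and of the 834 lower genes 243 (29.1%) differed in this test. Each difference had the sign of the effect in T8- cells, and the sizes of the effects were not compared. These genes were picked by their effect in T8- cells, which is a term of the difference. That choice favours both the shares and the shared sign, so neither is evidence of its own. Some effects were opposite, as for Nrp1, with log2 fold changes of -1.29 in T8- and 0.96 in T8hi cells. The counts of 60 and 361 were 0 and 1 with no batch term, where 125 and 835 genes had an unadjusted p under 0.05. The 60 became 28 without Lgr5+T8- of batch 2, 14 and 15 without Lgr5+T8hi of batches 1 and 2, 116 and 162 without Lgr5-T8- of batches 1 and 2, and 16 and 33 without Lgr5-T8hi of batches 1 and 2. The 361 became 167 without Lgr5+T8- of batch 2, 116 and 104 without Lgr5+T8hi of batches 1 and 2, and 223 without Lgr5-T8hi of batch 1.

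The sort marker itself was in this set. Lgr5 differed by 1.86 ± 0.11 in T8- cells and by 0.57 ± 0.11 in T8hi cells. Its level was 174 and 193 CPM in Lgr5+T8hi cells, against 119 and 129 CPM in Lgr5-T8hi cells. Lgr5-T8hi cells thus had more Lgr5 RNA than Lgr5-T8- cells. The log2 difference of the effects was 1.30 ± 0.15 (adjusted p = 0.00164 in edgeR's test). Pappa2 was 4.41 and 3.31 CPM in Lgr5+T8- cells, against 25.6 and 16.2 CPM in Lgr5-T8- cells, and 4.499 and 3.253 CPM in Lgr5+T8hi cells, against 4.09 and 1.68 CPM in Lgr5-T8hi cells. The Lgr5-T8- libraries thus stood above all 6 others, and the log2 difference of the effects was -2.90 ± 0.29 (adjusted p = 0.000661). The same held for Serpinb2 (-5.41 ± 0.88) and Lars2 (-3.43 ± 0.37), with T8hi levels of 0.317 to 2.25 CPM and 108 to 216 CPM. Of the genes with a more positive effect in T8- cells, Esyt3 was 12.6 and 16.5 CPM in Lgr5+T8- cells, against 5.58 and 4.49 CPM in Lgr5-T8- cells, but 26.6 and 30.4 CPM in Lgr5+T8hi cells, against 27.4 and 29.9 CPM in Lgr5-T8hi cells, a log2 difference of 1.52 ± 0.20. Frmpd4 (1.63 ± 0.30) was higher in the Lgr5+ cells of both contrasts. Adamts6, a metalloprotease, had log2 fold changes of 1.03 in T8- and -0.55 in T8hi cells (difference 1.57 ± 0.26), and its effect in T8- cells had an adjusted p of 0.0849 without Lgr5+T8- of batch 1, 0.0786 without Lgr5-T8- of batch 1 and 0.134 with no batch term. The adjusted p of the difference was 0.0832, 0.0818 and 0.0773 for Frmpd4 without Lgr5+T8- of batch 1, Lgr5+T8hi of batch 1 and Lgr5-T8hi of batch 1, 0.0933 and 0.0532 for Adamts6 without Lgr5+T8hi of batch 1 and Lgr5-T8hi of batch 1, 0.21 and 0.16 for Lars2 without Lgr5-T8- of batches 1 and 2, and 0.0976, 0.0803 and 0.0934 for Serpinb2 without Lgr5+T8hi of batch 2, Lgr5-T8- of batch 1 and Lgr5-T8- of batch 2. All of these genes missed the threshold for the difference with no batch term.

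**Figure D5:**
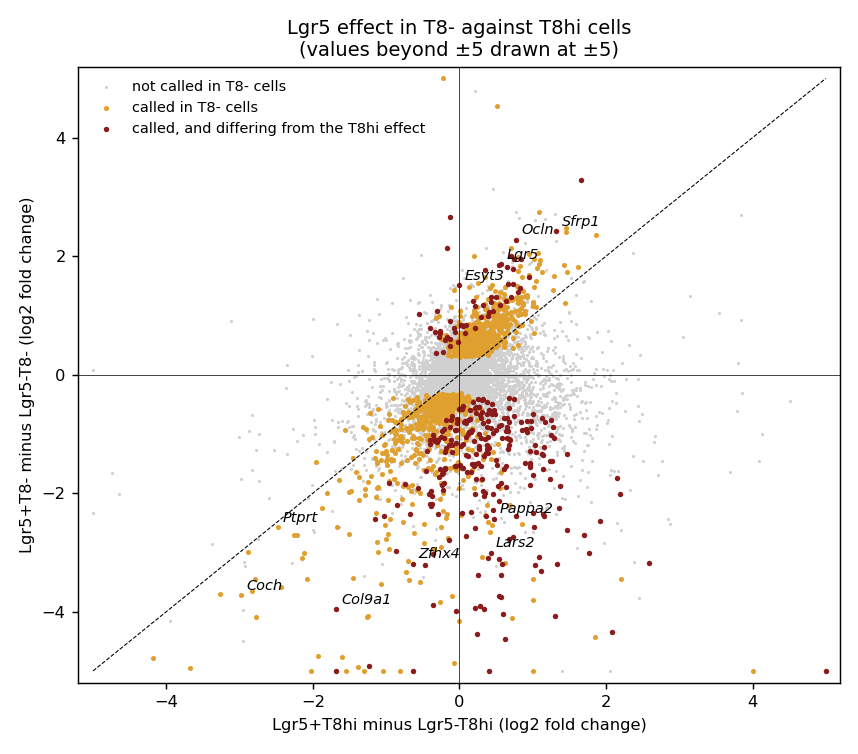
Log2 fold change of each tested gene between Lgr5+ and Lgr5- libraries, in T8- cells on the vertical axis and in T8hi cells on the horizontal axis; orange points are called in T8- cells, dark red points also differ between the 2 effects, grey points are not called, and the dashed line marks equal effects. The 243 dark red points below 0 lie under the dashed line, a position favoured by their choice through the effect in T8- cells. Coch and Ptprt fall near the line, with log2 fold changes of -3.73 and -2.57 in T8- cells and -2.98 and -2.48 in T8hi cells.

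Of the 27 basement membrane genes, 4 had a lower effect in T8- cells by the test of the difference, namely Lamc3, Col4a1, Col4a2 and Nid1. Over all genes tested the share was 2.18%. For Lama1 the difference did not pass (-1.81 in T8- cells and -1.25 in T8hi cells, adjusted p = 0.107 in edgeR's test). The endothelial, leukocyte and erythroid lists had median log2 fold changes of -0.82, -0.34 and -1.62 in T8- cells and of 1.19, 1.53 and 2.11 in T8hi cells. By the test of the difference, 5 of 18, 8 of 21 and 3 of 5 tested members had a lower effect in T8- cells, against 2.18% of all genes tested. Summed endothelial levels were 1205 to 1263 CPM in Lgr5+T8hi cells, against 383 to 717 CPM in Lgr5-T8hi cells. The part of these cells in the 361 genes with a lower effect in T8- cells was not tested. Pan-luminal genes had medians of 0.41 in T8- and 0.22 in T8hi cells, and the potassium channels -0.58 and 0.02.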

How the data were processed

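RNA was measured in 8 libraries of FACS-sorted mammary basal cells, 2 from each of 4 populations, extracted with the RNeasy micro kit and read single-end, per the labels' protocols. The authors deposited raw read counts per gene for 27164 genes. Per the submitters' processing notes, the tools were CASAVA 1.8.2, featureCounts, edgeR 3.10.2 and limma 3.24.14, with builds mm10 and GRCm38. The aligner and the strand setting of the counting are not given in the sources used here. Gene names were matched to RefSeq (GRCm38.p6) for 25260 identifiers.

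From the deposited counts, genes passing filterByExpr with a minimum count of 10 (16526) were scaled by TMM and fitted with edgeR 4.0.16 in R 4.3.3, with population and batch as terms over all 8 libraries. Tests were two-sided quasi-likelihood F-tests, with Benjamini-Hochberg adjustment over all tested genes and a threshold of 0.05. Standard errors are the log2 fold change divided by the square root of F. Total counts ran from 24571300 to 38384875 per library. The floor of 3 counts corresponds to 0.0945 and 0.1196 CPM in the Lgr5+T8- libraries and 0.09095 and 0.1103 CPM in the Lgr5-T8- libraries. It covers counting error only, and each fold bound sets a group's mean level against the mean floor, not batch by batch.

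Libraries that share a batch number in the labels deviated together in all 6 pairs of populations (r of 0.415 to 0.55), so the batch was kept as a block. Alternatives were no block, RLE scaling, no count filter, a filter of 1 CPM in 2 libraries, DESeq2 1.42.0, limma-voom (limma 3.58.1), the T8- libraries alone and leaving out each library. The pipeline was tested on simulated data. Genes named are Lgr5, Tspan8, the 15 highest and 15 lowest log2 fold changes among called genes of at least 5 CPM with the same sign in both batches, and up to 4 members per list with the smallest adjusted p; for the difference of effects, the 3 highest and 3 lowest were taken by the same rules. Of the 15 lowest, 2 are not reported here. The comparison, the 50 gene lists and the rule were chosen with earlier results of these data known.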

Additional observations from a re-analysis of the deposited data

Results flagged for a closer look

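Of the 30 named genes that were sorted on or stood at the top of a comparison, 24 had an Lgr5-associated difference unlike in T8- and T8hi cells. The test was edgeR's quasi-likelihood test of the difference itself (adjusted p under 0.05), which 2.55% of all genes tested passed. The 24 do not stand for other genes. The 3 highest and 3 lowest differences were named because they passed this test. The top genes were picked by their effect in T8- cells, which is a term of the difference. Values are the log2 effect in T8- cells minus the log2 effect in T8hi cells. Positive differences were 1.30 for Lgr5, 1.63 for Frmpd4, 1.10 for Sfrp1, 1.51 for Ocln, 1.11 for Ptprd, 1.21 for Slpi, 1.30 for Lrrtm1, 1.17 for Sstr1, 1.06 for Myo5b, 1.41 for Batf, 0.88 for Enah, 0.80 for Nrcam, 1.52 for Esyt3 and 1.57 for Adamts6. Negative differences were -5.41 for Serpinb2, -3.67 for Spock3, -2.27 for Col9a1, -2.56 for Zfhx4, -2.67 for Ror2, -3.43 for Lars2, -1.29 for Dio2, -2.90 for Pappa2, -1.36 for Sema3d and -2.06 for Pde3a. The call held in all 8 fits that left out a library and in the other tools for 11 of the 24, namely Lgr5, Sfrp1, Ocln, Slpi, Sstr1, Esyt3, Zfhx4, Ror2, Pappa2, Sema3d and Pde3a. All 24 lost it with no term for the batch. Of the 176 genes named as list members only, 54 passed the same test. These too were picked by their adjusted p in T8- cells.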

How the results depend on the processing

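The counts of called genes depended most on the replicate block for batch. With no replicate block 64 genes were higher and 144 lower in Lgr5+T8- than in Lgr5-T8- cells, against 630 and 834 with it, and the difference between the effects in T8- and T8hi cells was called upward for 0 genes and downward for 1, against 60 and 361. Without the block 97 of the 153 named genes that were called lost their call. Leaving out each library in turn gave 295 to 1078 higher and 455 to 1276 lower genes, and 14 to 162 upward and 104 to 422 downward differences of effects. The T8- libraries alone gave 327 higher and 616 lower genes, and the difference of effects was not run there because it needs the T8hi libraries. With no count filter 91 upward differences were called. DESeq2 called 510 higher and 792 lower genes, RLE scaling 564 and 857, a filter of 1 CPM in 2 libraries 561 and 776, and limma-voom 641 and 827. No call of a named gene reversed direction under any of these alternatives. Sign changes of genes called in neither fit were not counted. Precision is limited by 2 libraries per population and, for genes near the floor of 3 counts, by depth.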
